A study of Rattus norvegicus with 3 samples.

Results

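MicroRNA precursor genes are the short genes, or stretches within longer genes, whose transcripts fold into hairpins from which mature microRNAs are cut. Here they are all rows that the deposited gene table assigns to the class miRNA, and there were 391 of them among 29684 rows. RNA came from wild type extracellular vesicles, membrane-bound particles shed by cultured cells. The cells were adipose-derived mesenchymal stem cells, multipotent stromal cells from the inguinal fat of rats. There was 1 group of 3 libraries, replicates 1 to 3, each made from a batch of vesicles, and all carry the same label for vesicle extraction with no untreated or treated counterpart. The labels do not tie the batches to different animals or cultures, so the spread given below may be technical. Comparisons are therefore between rows of the same libraries.

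A primary microRNA transcript is trimmed in the nucleus by Drosha and its partner Dgcr8 to a hairpin of the length of these rows, which is exported and cut by Dicer into the mature strand of an Argonaute complex. Bases 2 to 8 of that strand, the seed, pair with target messages. Many microRNA genes lie inside introns or exons of longer host genes and are released from the host's transcript, and others form clusters cut from a shared transcript. In fat stromal cells miR-21, miR-22, miR-125, miR-143, miR-145 and the let-7 family are commonly named microRNAs. The values here count reads over the precursor gene from a total RNA library, and amounts of the mature strands were not measured separately.

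The sequences below are the mature strands of the rows on which the results turn, as listed by RefSeq for the GRCr8 assembly, with the seed in capitals. The first set holds rows of high level.
miR-3099: uAGGCUAGaaagagguugggga
miR-30c-5p: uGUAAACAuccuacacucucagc
miR-23a-3p: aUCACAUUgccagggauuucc
miR-379-5p: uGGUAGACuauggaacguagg
miR-22-3p: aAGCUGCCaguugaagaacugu
miR-3579: gCGCAUGUucuauggucaacca
miR-3564: uGGGAAAUgcaaagagggaag
miR-125a-5p: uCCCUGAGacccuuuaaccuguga
miR-148b-3p: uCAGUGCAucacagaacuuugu
miR-144-3p: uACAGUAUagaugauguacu
miR-451-5p: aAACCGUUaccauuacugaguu

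The second set shows other strands of the miR-30 and let-7 families. Those of miR-30 carry the seed of miR-30c-5p above, and those of let-7 share a seed with each other.
miR-30a-5p: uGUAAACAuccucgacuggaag
miR-30e-5p: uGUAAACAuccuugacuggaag
let-7a-5p: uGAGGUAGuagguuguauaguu
let-7c-5p: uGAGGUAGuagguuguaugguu
let-7d-5p: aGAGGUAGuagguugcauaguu
miR-98-5p: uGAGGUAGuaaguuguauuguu

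The third set belongs to rows that lay far below the gene around them.
miR-143-3p: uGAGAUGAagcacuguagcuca
miR-145-5p: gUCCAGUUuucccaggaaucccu
miR-423-5p: uGAGGGGCagagagcgagacuuuu
miR-675-5p: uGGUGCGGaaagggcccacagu
miR-877: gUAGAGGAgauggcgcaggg

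The class label was checked against the names. Of the 391 rows, 375 carried a microRNA name, 7 carried only an Ensembl identifier and 4 a clone name, while 4 were named for small nucleolar or Cajal body RNAs (Snora19, Snora36c, Snora58 and Scarna3). The rows were 46 to 141 bases long, with a median of 88, and lay on 21 chromosomes of the rat build mRatBN7.2, to which all coordinates below refer. Mir148b had no readable start, so 390 rows could be placed. Every member had a value above 0 in at least 1 library, and genes without any count are not among the rows.

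Depth was 5219920, 6786182 and 6618461 gene counts in replicates 1, 2 and 3, of which miRNA rows held 1536, 1655 and 1655. That is 0.0294%, 0.0244% and 0.0250% of the counts, and 0.509%, 0.432% and 0.431% of the summed FPKM, the authors' fragment count per length and library total. Among 9 markers of mesenchymal stromal cells, mean FPKM ran from 4.39 (Eng) to 172 (Vim), and none was absent. Their summed FPKM was 183, 335 and 302 in the 3 replicates. Among 5 markers of blood or endothelial cells it ran from 2.78 (Ptprc) to 8.92 (Pecam1), with sums of 29.0, 27.0 and 30.2. The stromal markers Eng, Nt5e, Cd44, Pdgfrb and Thy1 lay within the range of these blood and endothelial markers.

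Most miRNA rows had few reads. The median miRNA row had an FPKM of 1.88, 1.72 and 1.86 in replicates 1, 2 and 3, against 5.22, 4.46 and 4.83 for the median nuclear protein-coding row. The means were 1.82 ± 0.0887 for miRNA rows and 4.83 ± 0.380 for nuclear protein-coding rows (SD, n = 3). On the log2(FPKM + 1) scale the miRNA median differed from the protein-coding median by -1.05 ± 0.05. This difference turned to 0.23 when only rows with at least 10 counts summed over the libraries were kept, which left 164 of the 391 miRNA rows. Median FPKM was 3.36 ± 0.284 for small nucleolar RNA rows and 1.59 ± 0.199 for small nuclear RNA rows, the other short classes of the table. The miRNA median thus lay between these classes.

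Detection was lower for miRNA rows than for the table as a whole. In all 3 libraries, 137 miRNA rows (35.0%) had an FPKM of 1 or more, against 83.7% of all rows. Among small nucleolar RNA rows the share was 54.0%, and among small nuclear RNA rows 32.8%. A further 107 miRNA rows reached an FPKM of 1 in 2 libraries and 98 in 1 library. In all 3 libraries, 34 miRNA rows (8.70%) had an FPKM of 5 or more, against 29.5% of all rows, 9.75% of small nuclear RNA rows and 19.95% of small nucleolar RNA rows. At least 3 counts in every library were present in 85 miRNA rows (21.7%), against 87.2% of all rows, 22.3% of small nuclear RNA rows and 42.4% of small nucleolar RNA rows. The median miRNA row had 2 counts in each library, against 76, 79 and 86 for the median row of the table. Of the 1173 miRNA values, 289 (24.6%) were listed at 0.

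**Figure D1:**
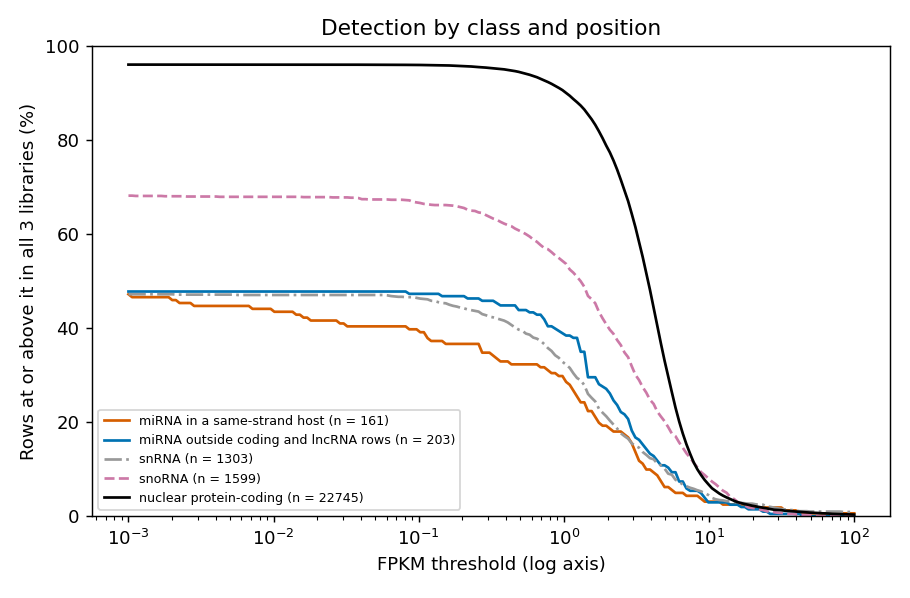
Share of rows (y axis, %) with an FPKM at or above a threshold (x axis, log scale) in all 3 libraries, for miRNA rows inside a same-strand host, miRNA rows enclosed by no protein-coding or lncRNA row, small nuclear RNA, small nucleolar RNA and nuclear protein-coding rows. At an FPKM of 1 the curves stand at 29.2% for hosted miRNA rows, 38.9% for miRNA rows not so enclosed and 90.4% for nuclear protein-coding rows.

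Replicates agreed less for miRNA rows than for the table as a whole. Between libraries, the SD of log2(FPKM + 1) had a median of 0.88 over miRNA rows, 0.72 for small nucleolar RNA rows and 0.27 for nuclear protein-coding rows. Across rows, Pearson's r between replicates was 0.468 to 0.498 over the 391 miRNA rows, against 0.796 to 0.820 over all rows. Over the 164 miRNA rows with at least 10 counts summed over the libraries, r was lower, at 0.240 to 0.289. That filter leaves out the low rows and so narrows the range of levels. The lower r therefore cannot be read as worse agreement of the better-covered rows. All of these are correlations across rows, which share libraries and are not independent replicates. The 20 highest miRNA rows of each library had 9 rows in common to all 3. Mir194-1, an epithelial and liver microRNA gene, shows the scatter: it had 26.8, 20.8 and 1.38 FPKM, from 18, 17 and 2 counts.

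A small set of miRNA rows stood above the rest, as the plot of the 15 highest rows shows. The highest was a row without a symbol, ENSRNOG00000064064 on chromosome 10 from 78217740 to 78217792 on the + strand, with 116, 212 and 209 FPKM. It took 6.06%, 11.9% and 11.6% of the FPKM of all miRNA rows. Its 53 bases lie inside Car10, a carbonic anhydrase-related gene with 5.46, 4.50 and 5.64 FPKM, and 32 of them also overlap LOC100911361 on the same strand. LOC100911361 is annotated as similar to the messenger RNA-binding protein hnRNP A3, and had 395, 531 and 667 FPKM. Reads of these 2 overlapping rows cannot be told apart.

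Mir124-1 was the second (chromosome 15, 38842014 to 38842098, + strand), with 81.9, 62.3 and 44.1 FPKM. It is a copy of the gene for miR-124, a microRNA of neurons, and lies outside every protein-coding and lncRNA row. Its sister Mir124-2 had 0, 0.115 and 1.38 FPKM, so that only 1 of the 2 copies with a row in the table stood out. Mir3099 (chromosome 1, 67023989 to 67024117, - strand) had 46.4, 58.3 and 32.6 FPKM. It lies in Usp29, a deubiquitinase gene with 4.17, 2.77 and 2.32 FPKM.

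Mir30c1 (chromosome 5, 134349237 to 134349325, - strand) had 46.9, 40.3 and 43.0 FPKM from 34, 35 and 37 counts. It was among the steadiest of the high rows, at 43.4 ± 3.31 (SD, n = 3). Its host Nfyc, a subunit of the transcription factor NF-Y, had 5.81, 7.74 and 7.69 FPKM. Mir30e lies 2907 bases away on the other strand in the table, and had 5.02, 0 and 0 FPKM. Mir30e was lower than Mir30c1 in every library.

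Mir23a (chromosome 19, 23954997 to 23955071, - strand) had 40.2, 44.5 and 23.5 FPKM. Its cluster partners Mir27a and Mir24-2, which lie 80 and 207 bases away on the same strand, had 14.9, 3.23 and 7.30 FPKM and 10.2, 11.5 and 6.65 FPKM. Mir23a was thus the highest of the 3 in each library, although they are known to be cut from a shared transcript. Mir379 (chromosome 6, 128722040 to 128722124, + strand), the first gene of an imprinted cluster, had 27.3, 27.5 and 25.1 FPKM. Mir22, a gene of wide expression in stromal and muscle cells, had 27.7, 21.7 and 17.6 FPKM. Mir3579 had 32.9, 17.5 and 16.4 FPKM on the strand opposite the Mir379 cluster.

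The next rows lay close together. Mir3564, on the strand opposite Klhdc4, averaged 20.02 ± 4.42 FPKM, and Mir125a, a relative of the worm gene lin-4, averaged 19.99 ± 5.43 (SD, n = 3 each). Mir343, in the DNA repair helicase gene Ercc2, averaged 19.3 ± 1.62, and Mir148b 18.9 ± 9.47. ENSRNOG00000068231 had 12.1, 22.9 and 20.04 FPKM. It lies in Rgsl1, and 39 of its 46 bases overlap LOC120096281, a second row annotated as similar to hnRNP A3, with 248, 321 and 358 FPKM. Mir144 and Mir451a, neighbours 90 bases apart that are cut from a shared transcript in red blood cell precursors, averaged 16.9 ± 8.26 and 16.8 ± 10.5. From Mir124-1 down, the mean of each of the 15 highest rows differed from the next by less than the larger SD of the pair.

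**Figure D2:**
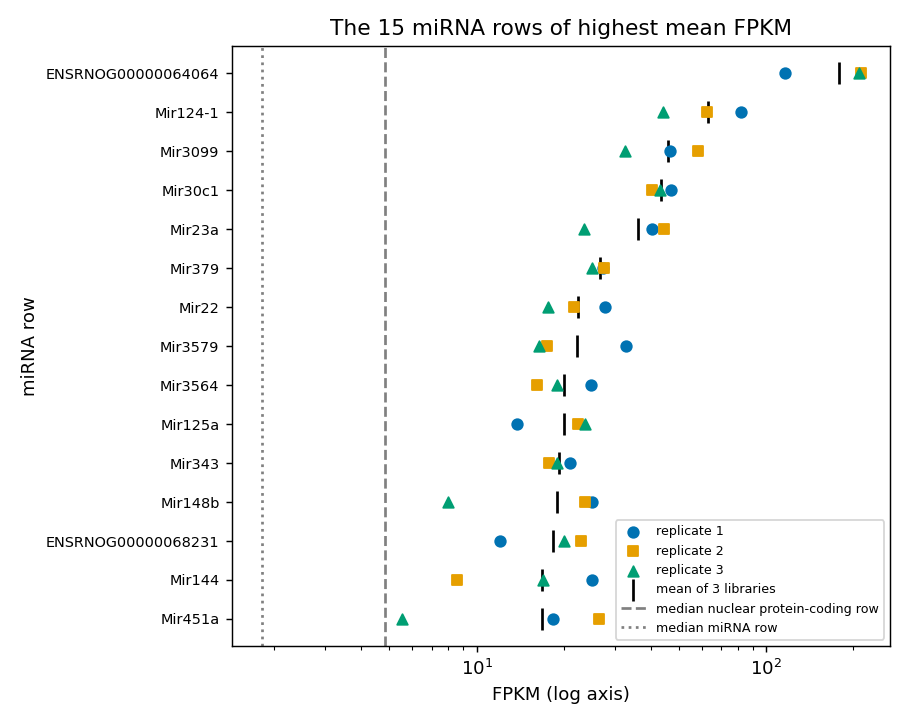
FPKM (x axis, log scale) of the 15 miRNA rows of highest mean (y axis), with a symbol for each replicate and a bar at the mean of the 3 libraries. ENSRNOG00000064064 lies at 116 to 212, and even Mir451a, the fifteenth, has its lowest library at 5.54, above the dashed nuclear protein-coding median of 4.83.

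Rows were tested against the nuclear protein-coding median of their own library with limma's treat function, which asks whether the mean log2(FPKM + 1) difference exceeds 2. Of the 391 miRNA rows, 3 were called above it, with Benjamini-Hochberg adjustment over all 29684 rows. The background was 1.001% of all rows, and 2.02% of the other rows of 46 to 141 bases. The count among miRNA rows is near this background, and nothing is read from it about the class. ENSRNOG00000064064 differed by 4.90 (SE 0.26, adjusted p 0.0108, limma). Mir124-1 differed by 3.41 (SE 0.20, adjusted p 0.0439, limma) and Mir30c1 by 2.93 (SE 0.12, adjusted p 0.0354, limma). Each was above the median in 3 of 3 libraries. Mir3099 differed by 2.97 without passing (SE 0.21, adjusted p 0.203, limma), Mir23a by 2.62 and Mir379 by 2.25. The calls rest on all 3 libraries: without replicate 1 the called rows were ENSRNOG00000064064 and Mir30c1, and without replicate 2 or without replicate 3 there were 0. edgeR on the counts called 5, adding Mir3099 and Mir23a, with 2.47% of all rows called.

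Clusters gave a second view of the same rows. With starts within 10 kb on a strand, 146 of 390 placed rows fell into 45 clusters, and 8 clusters held at least 5 rows. Median mean FPKM was 2.78 for clustered and 2.54 for single rows, against 2.66 for all miRNA rows. The longest cluster began with Mir379 and held 24 rows over 41.2 kb of chromosome 6 (128722040 to 128763271, + strand). It is the maternally expressed cluster of the Dlk1-Dio3 imprinted domain. Its members ran from 0.462 (Mir543) to 26.7 (Mir379) with a median of 3.95, and 11 of the 24 had a library at 0. Only Mir379 had over 20 FPKM in every library. By mean, Mir667 followed with 10.1, 8.86 and 6.79 FPKM, and then Mir485 with 13.0, 0.703 and 9.71.

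In the same domain, the 6 rows from Mir770 to Mir665 (chromosome 6, 128515835 to 128539533, + strand) had a median of 6.85. Mir770 had 4.95, 17.4 and 8.78 FPKM, Mir540 5.97, 12.1 and 9.66, and Mir673 1.67, 0 and 0. On the other strand the 5 rows from Mir3595 to Mir3578 had a median of 5.72, with Mir3592 the highest at 9.92 ± 8.31 (SD, n = 3). Of the 49 miRNA rows on chromosome 6, 23 had an FPKM of 1 or more in each library, against 137 of 391 in all. The X chromosome held 54 rows and 9 such rows. Chromosome 6 did not have the highest share. Such rows were 5 of 6 on chromosome 12, 8 of 13 on chromosome 19 and 10 of 20 on chromosome 7, and 0 of 4 on chromosome 20.

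On the X chromosome the 6 rows of the Mir450a1 cluster (132801380 to 132806688, - strand), which includes Mir322-2 and Mir503, known to slow the cell cycle, had a median of 5.44. Mir450a1 had 6.69, 18.4 and 12.5 FPKM and Mir542 9.80, 9.36 and 14.6. The testis-associated cluster from Mir471 to Mir881, also of 6 rows on the X chromosome, had a median of 0.665, and each of its rows was at 0 in at least 1 library. The Mir17 cluster, known as an oncogenic cluster that promotes proliferation (chromosome 15, 92180629 to 92181413, + strand), had a median of 2.10 over 6 rows. Mir18a was its highest, with 1.67, 12.7 and 0 FPKM. The related cluster from Mir363 to Mir106a had a median of 1.62 over 5 rows. The Mir295-1 cluster of early embryonic cells had a median of 2.32 over 7 rows. The plot of cluster members shows the spread within each cluster.

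**Figure D3:**
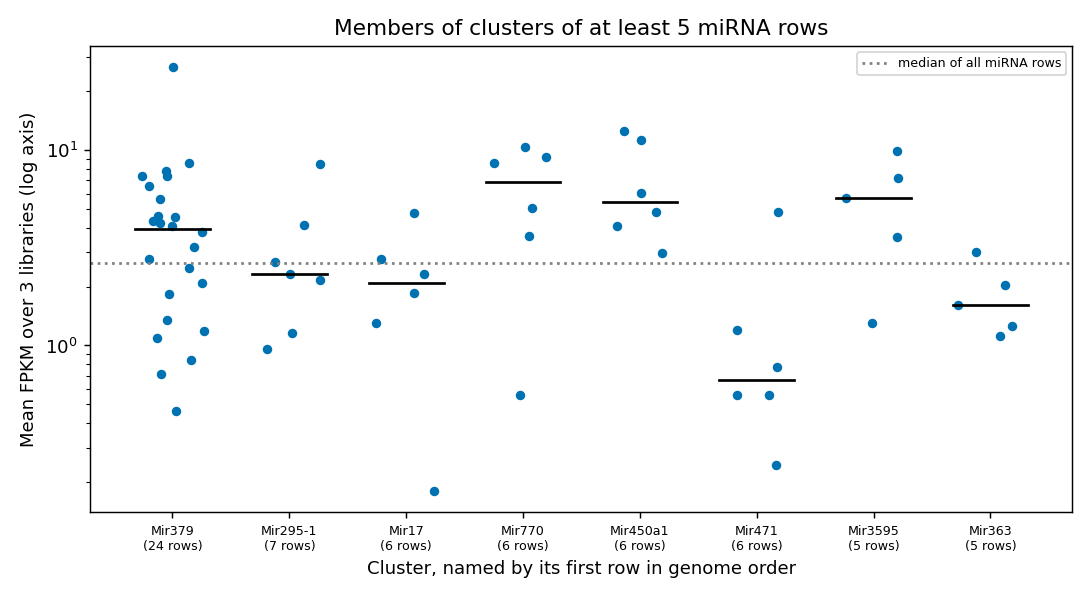
Mean FPKM over 3 libraries (y axis, log scale) of each row in the 8 clusters of at least 5 miRNA rows (x axis, named by the first row), with a bar at the cluster median and a dotted line at the miRNA median of 2.66. Mir379 stands alone at 26.7 above its cluster, and the Mir471 cluster has the lowest median at 0.665.

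Rows that share a seed could differ widely in level. RefSeq listed mature strands for 326 of the 391 rows, and seeds were counted among these matched rows only. Among them, 7 seeds were carried by at least 4 rows. The seed GUAAACA of the miR-30 family was carried by 5 matched rows, of which Mir30c1 averaged 43.4 FPKM. The other matched rows were Mir30e at 1.67, Mir30a at 1.21, Mir30c2 at 0.659 and Mir384 at 0.462. Mir30d and Mir30b, named for the same family but without a strand matched to this seed, averaged 9.17 and 0.224. Mir30c1 and Mir30c2 encode the same miR-30c-5p strand, and Mir30c2 had 0, 0 and 1.98 FPKM. The seed GAGGUAG of the let-7 family, which restrains growth and pluripotency genes, was carried by 7 rows from 1.85 (Mir98) to 6.09 (Mirlet7c2).

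Of these let-7 rows Mirlet7c2 had 6.64, 2.68 and 8.95 FPKM, and Mirlet7b, 1 of its neighbours on chromosome 7, had 12.4, 2.94 and 2.41. Mirlet7a1 had 0, 5.08 and 1.23 FPKM and Mirlet7d 0, 3.74 and 8.28. Rows of the seeds AAAGUGC (6 rows of the Mir17 type) and AUUGCAC (6 rows of the Mir25 and Mir92 type) had medians of 2.41 and 2.43. The Mir34 rows, known as targets of p53, and the Mir449 rows share the seed GGCAGUG and together had a median of 1.72. Hairpin GC content, known for 319 rows, correlated weakly with mean FPKM across rows (Spearman's rho 0.128), and row length did not order the levels (rho 0.0339). These rows share libraries and depth.

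The medians of stromal microRNA genes and of genes restricted to other tissues differed by less than their SD. The 33 rows of the stromal list had a median FPKM of 2.06 ± 0.680 (SD, n = 3), and 10 of them (30.3%) reached 1 in every library. The 32 tissue-restricted rows had a median of 2.002 ± 0.403 and 10 (31.2%) reached 1 in every library, with Mir155 in both lists. Over all miRNA rows these figures were 1.82 ± 0.0887 and 35.0%. Further genes of the planned lists had no row in the table, among them Mir16, Mir31, Mir210 and the liver gene Mir122. They are left out of the list medians and shares. In the stromal list Mir23a, Mir22 and Mir125a led. Mir21, often the most abundant microRNA of cultured stromal cells, had 10.6, 9.54 and 0.467 FPKM. Mir146a, an inhibitor of inflammatory signalling, was steady at 4.33, 6.07 and 6.47. Mir222, Mir199a2, Mir143 and Mir145 were the lowest 4, each with a mean under 0.4 FPKM.

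Among genes of other tissues Mir124-1 was the one row called. The other 7 rows of the nervous system list ran from 0.500 (Mir124-2) to 3.96 (Mir219-2, an oligodendrocyte gene), with Mir9 at 7.02, 2.05 and 1.38 FPKM. In the blood list Mir144 had 25.1, 8.57 and 16.9 FPKM and Mir451a 18.4, 26.4 and 5.54. The myeloid gene Mir223 had 0, 0 and 0.0505, and the pan-leukocyte gene Mir142 had 0, 0 and 5.76. Mir144 lay above Mir223 and Mir142 in every library, and Mir451a did so in replicates 1 and 2 but not in replicate 3. Mir155, a gene of activated leukocytes, had 0, 5.02 and 1.38 FPKM.

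The 6 striated muscle rows ran from 2.30 (Mir206) to 5.25 (Mir208b, which lies in the myosin gene Myh7). Mir499a, in the myosin gene Myh7b, had 10.0, 2.24 and 0 FPKM, and Mir133a-2 had 5.04, 3.79 and 2.30. In the epithelial list Mir429 had 5.78, 14.4 and 1.38 FPKM and Mir200b, its neighbour in Ttll10, had 1.28, 2.08 and 1.59. Mir141, of the same family, had 0, 5.91 and 3.05 FPKM, and Mir205, a gene of basal epithelium, had 7.25, 1.66 and 0. In the pluripotent list Mir295-1 had 7.53, 1.27 and 16.8 FPKM and Mir294 5.02, 5.56 and 1.83, while Mir291b had 7.99, 0 and 0. Each of these lists held rows at 0 in a library.

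**Figure D4:**
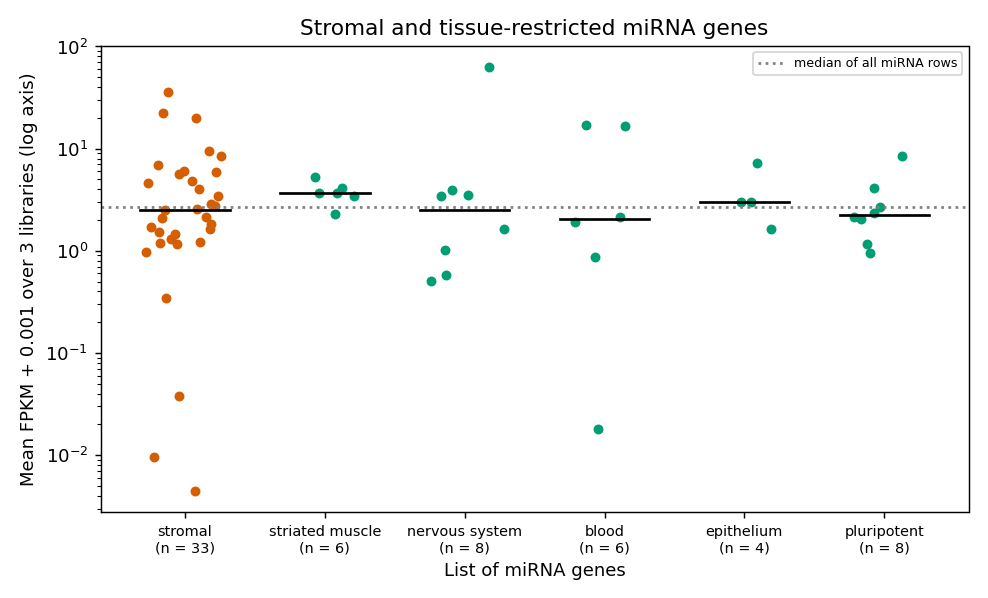
Mean FPKM over 3 libraries plus 0.001 (y axis, log scale) of the rows in the stromal list and 5 lists of tissue-restricted microRNA genes (x axis), with a bar at each median and a dotted line at the miRNA median of 2.66. The stromal rows spread from 0.00344 (Mir145) to 36.1 (Mir23a), and Mir124-1 stands alone at 62.7 in the nervous system list.

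miRNA rows inside a host gene had a lower median than rows outside. A host was the smallest protein-coding or lncRNA row that enclosed the miRNA row on the same strand. By this rule 161 rows lay in 144 hosts, 148 of them in protein-coding and 13 in lncRNA rows. A further 26 lay only opposite such a gene, and 203 were enclosed by no such row on either strand, called outside here. The strand setting of the authors' counting is not given in the sources used here, so reads of opposite strands may be mixed. Median FPKM was 1.26 ± 0.133 for rows in a same-strand host, 2.22 ± 0.504 for rows opposite a gene and 2.53 ± 0.413 for rows outside (SD, n = 3 each).

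On the log2(FPKM + 1) scale the hosted median minus the outside median was -0.74, -0.57 and -0.60 in replicates 1, 2 and 3, or -0.64 ± 0.09 (SD). FPKM was 1 or more in each library in 47 hosted rows (29.2%), 10 rows opposite a gene (38.5%) and 79 rows outside (38.9%). Median FPKM of small nucleolar RNA rows was 2.69 ± 0.0923 in a host and 3.63 ± 0.428 outside. For small nuclear RNA rows it was 1.72 ± 0.382 in a host and 1.54 ± 0.143 outside. The difference of these classes from miRNA rows was not tested. With rows of at least 10 counts only, the hosted minus the outside median of miRNA rows was -0.084.

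Traces of coverage were found in hosted rows. A value above 0 that amounts to less than 1 covered base of the row occurred in 38 of 483 values of hosted miRNA rows, in 0 of 78 values of rows opposite a gene and in 0 of 609 values of rows outside. The 38 values belonged to 22 rows, of which 6 were among the 13 rows in lncRNA hosts (46.2%) and 16 among the 148 in protein-coding hosts (10.8%). In 5 rows every library was of this kind: Mir7654, ENSRNOG00000063769, Mir5125, Mir145 and Mir760. The deposited count of each was 1 in every library, since counts of these short rows are rounded up.

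Mir143 and Mir145, smooth muscle and stromal microRNA genes on chromosome 18 (55101006 to 55101110 and 55099640 to 55099727, - strand), show this. Mir143 had 0.0238, 0.00180 and 0.00032 FPKM and Mir145 had 0.00380, 0.00459 and 0.00192. Their host, the lncRNA row LOC120098113, had 8.51, 7.88 and 7.14 FPKM. The median of the 13 rows in lncRNA hosts was 0.0245 ± 0.0142, against 1.47 ± 0.137 for the 148 rows in protein-coding hosts (SD, n = 3 each). The median also followed the length of the host: it was 0.119 ± 0.0847 in 20 hosted rows with hosts up to 10 kb, 0.983 ± 0.341 in 83 rows with hosts of 10 to 100 kb and 1.59 ± 0.182 in 58 rows with longer hosts. How the authors' counting divides reads between a row and its host was not tested.

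Hosted rows were mostly below their hosts. The median miRNA row minus its own host was -1.33, -1.47 and -1.61 on the log2(FPKM + 1) scale in replicates 1, 2 and 3, or -1.47 ± 0.14. With rows of at least 10 counts only it was 0.14. The miRNA row lay below its host in every library in 96 of 161 pairs (59.6%), against 49.3% of all 1376 nested rows of any class, 58.9% of nested small nucleolar RNA rows and 52.7% of nested small nuclear RNA rows. It lay above in every library in 13 pairs (8.07%), against 18.2% of all nested rows, 11.4% of nested small nucleolar RNA rows and 8.64% of nested small nuclear RNA rows. The level of the host did not order the level of the miRNA row. Across the 161 pairs, Pearson's r of mean log2 levels was 0.0393 and Spearman's rho 0.0316. Pairs share libraries, and some share a host.

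**Figure D5:**
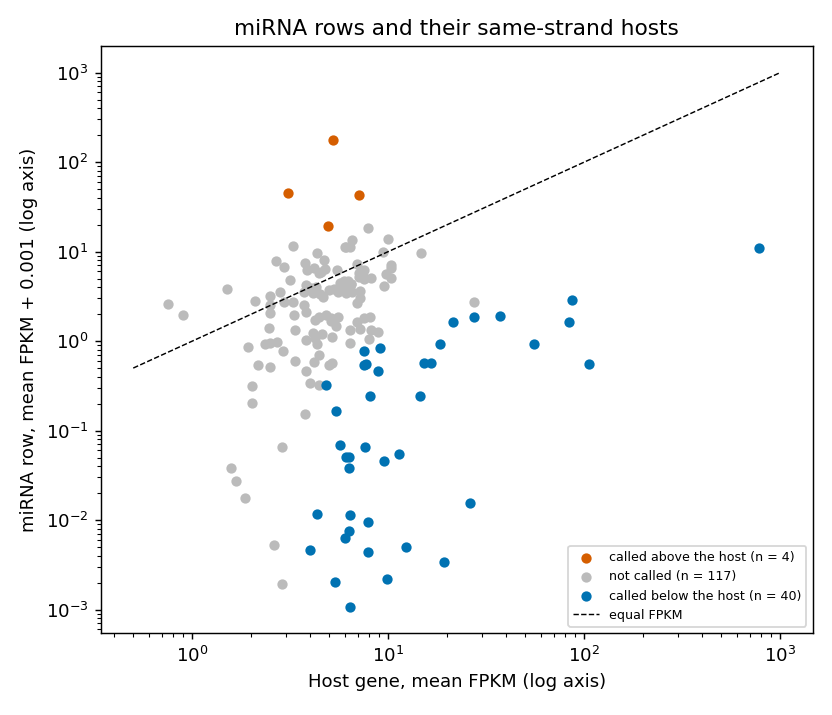
Mean FPKM plus 0.001 of each of 161 miRNA rows (y axis, log scale) against mean FPKM of its same-strand host (x axis, log scale), with the line of equal FPKM. The 4 rows called above their host lie over the line, and the 40 called below lie under it.

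Each row was tested against its host with limma's treat function at a log2 difference of 1, adjusted over the 1376 nested rows. Above the host, 4 of the 161 hosted miRNA rows were called. The background was 3.85% of nested rows, 1.55% of nested small nucleolar RNA rows and 2.27% of nested small nuclear RNA rows. Nothing is read from this count about the class. ENSRNOG00000064064 exceeded Car10 by 4.81 (SE 0.26, adjusted p 0.00149, limma), a row whose bases overlap LOC100911361 as given above. Mir3099 exceeded Usp29 by 3.50 (SE 0.24, adjusted p 0.00301, limma), and Mir30c1 exceeded Nfyc by 2.46 (SE 0.23, adjusted p 0.00932, limma). Mir343 had 21.0, 17.8 and 19.0 FPKM, against 4.96, 4.46 and 5.33 for Ercc2, a difference of 1.78 (SE 0.22, adjusted p 0.0455, limma). All 4 were above the host in 3 of 3 libraries. The call of Mir343 was lost without any 1 of the replicates, and that of Mir30c1 without replicate 2 or without replicate 3. Mir652, in Tmem164, had 14.1, 12.9 and 6.91 FPKM against 5.18, 6.07 and 6.77 in its host, and was not called.

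Below the host, 40 of the 161 hosted miRNA rows were called. The background was 15.5% of nested rows, 26.4% of nested small nucleolar RNA rows and 9.09% of nested small nuclear RNA rows. Nothing is read from this count about the class. The called rows include Scarna3, Mir664-2 and Mir3084a, which overlap small nucleolar or Cajal body RNA rows by 78, 59 and 66 bases. The count below was 30 without replicate 1, 8 without replicate 2 and 13 without replicate 3. Keeping rows whose mean FPKM was 1 or more left 6 calls below, and keeping rows of at least 10 counts left 1. The widest gap was that of ENSRNOG00000069629 (chromosome 1, 259917205 to 259917270, - strand) with 4.75, 8.90 and 19.4 FPKM, against 507, 976 and 853 for its host Eif3a, which encodes part of the initiation factor eIF3. The difference was -6.16 (SE 0.42, adjusted p 0.00231, limma). Of its 66 bases, 65 are also those of the small nucleolar RNA row LOC120093054 (SNORA19), which had 48.6, 63.5 and 83.8 FPKM. Reads of these rows cannot be told apart.

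Mir423 had 1.08, 0 and 0.560 FPKM, against 74.8, 131 and 113 for its host Nsrp1, a splicing regulator (-6.14, SE 0.48, adjusted p 0.00308, limma). Mir877, known in mammals as a mirtron, an intron that is itself the hairpin, had 4.21, 0.392 and 0.261 FPKM, against 58.2, 97.1 and 94.5 for Abcf1. Mir761 had 0.761, 0.0141 and 7.91 FPKM, against 56.4, 107 and 97.0 for Nrdc. The differences were -5.30 and -5.07 on the log2 scale.

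Mir675 lies in H19, an imprinted RNA that is a known source of miR-675 and that the table classes as protein-coding (chromosome 1, 197732275 to 197732358, - strand). Mir675 had 0.0159, 1.51 and 1.27 FPKM, against 23.6, 67.6 and 75.5 for H19, a difference of -4.81 (SE 0.35, adjusted p 0.00290, limma). Mir7654 minus Arglu1 was -4.65 and ENSRNOG00000063769 minus Sumo2 was -4.30 on the log2 scale. Mir98 had 0, 5.56 and 0 FPKM in the ubiquitin ligase gene Huwe1, at 19.4, 33.6 and 29.7, and Mirlet7f2 in the same gene had 7.90, 0 and 0.284. Mir98 was called (-3.90, SE 0.59, adjusted p 0.0186, limma). Mir5125 in Srrm2 and Mir3583 in Dnajc8 followed at -3.72 and -3.69.

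Some hosts enclosed more than 1 miRNA row, and rows of a shared host were not tested against each other. Mir25, Mir93 and Mir106b lie within 494 bases of the replication helicase gene Mcm7, which had 10.2, 9.91 and 10.7 FPKM. Mir25 had 6.61, 3.09 and 5.54 FPKM, Mir93 18.4, 1.39 and 0, and Mir106b 5.40, 1.25 and 14.6. A different row of the 3 was highest in each library, and none of the 3 was called against Mcm7. Dgcr8, the gene of the nuclear hairpin-binding protein named above, hosts Mir1306 and Gm24572, both called below it, at means of 0.0492 and 0.00651 FPKM against 6.28. The chloride channel gene Clcn5 hosts Mir188, Mir362, Mir500 and Mir532, whose means ran from 0.543 to 6.30 against 7.51 for the host, and Mir188 and Mir532 were called below it.

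Overlap on the same strand with a row other than an enclosing protein-coding or lncRNA row was found for 12 of the 390 placed miRNA rows. Mir632, for example, lies with all of its 78 bases in Zfp207, which the table classes as a pseudogene. Besides the 3 rows with Ensembl identifiers described above, these included the 4 rows named for small nucleolar or Cajal body RNAs. Snora58, for example, shares 74 of its 76 bases with Gm50450, and had 0.847, 0 and 0.915 FPKM against 1.36, 0 and 1.18. No 2 miRNA rows overlapped on opposite strands (0 pairs).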

How the data were processed

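The rows, lists and tests were chosen with earlier results of these data known. The submitters' processing notes name cutadapt 1.9, FastQC and the build mRatBN7.2. Which aligner and counter were used is not given in the sources here. Per the labels' protocols, the library kit was stranded, for low amounts of total RNA, ribosomal cDNA was cut with probes, and no molecular identifiers are named, so duplicate reads are not independent molecules. Gene counts, whole numbers, and the authors' FPKM were deposited for each library, per the file headers.

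In miRNA rows the deposited FPKM was read as following the mean depth of coverage. The commonest value above 0 was 1.67, 1.39 and 1.38 FPKM in replicates 1, 2 and 3. In units of that value, 46, 48 and 49 rows lay within 0.01 of a whole number. They were 15.8%, 16.4% and 16.3% of the miRNA rows above 0. With the commonest value as the unit, the median miRNA row had a depth of 1.13, 1.24 and 1.34. The deposited counts equalled FPKM times length over that value and 75 bases, rounded up, in 99.0% to 99.3% of miRNA rows with counts. A count of 1 can therefore stand for less than 1 covered base. The counts covered few reads per row, and their number limits the precision.

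Level tests used limma 3.58.1 (R 4.3.3): an intercept fitted to log2(FPKM + 1) minus that of the nuclear protein-coding median (treat threshold 2) or of the host (threshold 1), with a prior variance that follows the level, adjusted p under 0.05, and no filter on low values. A threshold of 2 is 4.62-fold in FPKM at that median, and a row at 0 in every library differs by -2.54, so it could be called below only narrowly, and in this fit 0 rows were (0% of all rows). A pseudocount of 1 understates the change of low rows. Both limma tests were also run on simulated data. The simulation for the host test had equal noise for every row and no zeros, unlike these miRNA rows. edgeR 4.0.16 on the counts, with the counts per FPKM as offset, was an alternative; since its threshold function needs a design with a second coefficient, a quasi-likelihood F test against 4 times the median was computed in its place. Exon and intron positions were not used here. Text names rows called above the median, the 15 highest, the rows called against a host with the widest gaps (10 below and the 4 above), the 3 highest of each list, clusters of at least 5 rows and their hosts. Mir194-1 and other rows outside this rule were chosen after their values were seen. Mature sequences were matched by gene identifier to RefSeq.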

Additional observations from a re-analysis of the deposited data

How the results depend on the processing

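Of 6 results, the medians kept their direction under every alternative except a filter. Keeping rows with at least 10 counts turned the miRNA minus protein-coding median to 0.23 and the miRNA minus host median to 0.14 (log2), by leaving out the low rows, and moved hosted minus outside to -0.084. Keeping rows with a mean FPKM of at least 1 gave -0.41, -0.59 and -0.093 for the same 3 medians. A pseudocount of 0.1 gave -1.36, -2.49 and -0.94, rescaling to the sum without mitochondrial and structural RNA gave -1.32, -2.29 and -0.90, and CPM, which is not per length, gave -3.78, -4.52 and -0.13. For hosted minus outside, protein-coding hosts only gave -0.37 and hosts on either strand -0.51. The share of miRNA rows detected was 43.7% to 44.8% without 1 replicate, 48.1% among rows with a mean FPKM of at least 1, 73.2% with at least 10 counts, 21.7% at 3 counts in every library and 8.70% at an FPKM of 5.

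Rows called above the protein-coding median, 3 in the report, numbered 0 to 2 without 1 replicate. They were 1 (ENSRNOG00000064064) with the mean FPKM filter, the single prior and the robust prior, 0 with CPM, 9 at a threshold of 1 and 5 with edgeR. miRNA rows called below numbered 367 with limma on CPM and 269 with edgeR, whose test was against 4 times the median and not the median itself. They were 0 in the report's test and under the other settings. The unadjusted limma p was under 0.05 in 2.10% of all rows. Rows called against their host, 44 in the report, numbered 10 to 33 without 1 replicate: 33 without replicate 1, 10 without replicate 2 and 15 without replicate 3. They were 10 with the mean FPKM filter, 4 with at least 10 counts, 11 at a threshold of 2 and 158 with CPM. Other settings gave 35 to 45. ENSRNOG00000064064 and Mir3099 were called above their hosts under each of these settings except CPM. The causes of the other changes were not tested. No paired analysis was possible because there is 1 group. With a median of 2 counts in a row, single rows outside the highest cannot be ordered at this depth.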
